A study of Mus musculus with 12 samples.

Results

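The Mas-related G protein-coupled receptor genes described here are Mrgprd, Mrgpra3, Mrgprx1, Mrgprb4, Mrgprb5, Mrgpre and Mrgprf, 7 of the 24490 genes with an expression value. They were chosen by name from the receptor family, with earlier results of these data known. The table holds 14 further rows of the family, counting Mas1, and these are described after the members. Expression was measured by polyA-selected RNA sequencing of dorsal root ganglia (DRG) from adult C57Bl/6 mice, in 3 preparations with 4 samples each. Intact samples were whole ganglia of 1 mouse each, frozen without dissociation. Unsorted samples were ganglia of 2 mice, dissociated with dispase, collagenase and DNAse and then frozen. MACS-sorted samples were such dissociated cells of 8 mice, passed over a magnetic column that held back cells tagged with a cocktail of non-neuronal antibodies. All groups came from wild-type mice without treatment, ganglia of all spinal levels were mixed, and neither the sorted nor the unsorted samples were made from single cells or from 1 type of neuron.

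Mas-related receptors are found mainly on small sensory neurons that innervate the skin, and different members mark different kinds of these neurons. Mrgprd responds to beta-alanine and marks non-peptidergic nociceptors that end in the epidermis. Mrgpra3 is the receptor for chloroquine and Mrgprx1, also known as MrgC11, responds to the proenkephalin fragment BAM8-22, and both act in itch. Mrgprb4 marks C-fibre neurons that respond to stroking of the skin, and Mrgprb5 is its close paralog. Mrgpre and Mrgprf are orphan receptors. Several members signal through Gq proteins and phospholipase C, and the transcription factor Runx1 is needed in developing neurons for the expression of most of them.

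All 7 genes lie on chromosome 7 of mm10 (GRCm38), and 4 of them are grouped on the minus strand. These are Mrgpra3 (chr7:47588950-47601372), Mrgprx1 (chr7:48020971-48027597), Mrgprb5 (chr7:48168017-48168985) and Mrgprb4 (chr7:48198213-48199178), with 29227 bases between the last pair. Mrgpre (chr7:143778363-143784500) lies far from them on the minus strand. Mrgprf (chr7:145300909-145309557) and Mrgprd (chr7:145314835-145324059) are neighbours on the plus strand with 5277 bases between them. In the coding sequence, Mrgprb4 and Mrgprb5 were 84.3% identical, the highest value among the 21 pairs of members, and the other pairs ranged from 47.5% to 62.8%. The stretch of 120 coding bases in which Mrgprb4 and Mrgprb5 were most alike is shown because it is where reads of this pair are hardest to tell apart. It lies in the only exon of each gene, at coding bases 780 to 899 of Mrgprb4 (chr7:48198280-48198399) and 783 to 902 of Mrgprb5 (chr7:48168084-48168203), and the 4 bases that differ are in capitals.
Mrgprb4: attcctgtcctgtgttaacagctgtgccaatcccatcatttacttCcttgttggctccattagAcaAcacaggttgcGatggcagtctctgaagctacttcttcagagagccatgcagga
Mrgprb5: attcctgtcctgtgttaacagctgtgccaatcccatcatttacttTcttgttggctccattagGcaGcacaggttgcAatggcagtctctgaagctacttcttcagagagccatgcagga
The same comparison is shown for Mrgpra3 and Mrgprx1, the 2 itch receptors, whose most alike 120 bases still differed at 23 positions. Both stretches are coding sequence in exon 2 of 2, at coding bases 359 to 478 of Mrgpra3 (chr7:47589699-47589818) and 323 to 442 of Mrgprx1 (chr7:48021556-48021675).
Mrgpra3: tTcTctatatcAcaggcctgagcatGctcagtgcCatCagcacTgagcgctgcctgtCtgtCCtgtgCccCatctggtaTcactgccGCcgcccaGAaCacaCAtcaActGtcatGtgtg
Mrgprx1: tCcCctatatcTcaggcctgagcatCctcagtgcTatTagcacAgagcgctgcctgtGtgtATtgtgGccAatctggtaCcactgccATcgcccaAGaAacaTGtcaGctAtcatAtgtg
No window of 100 bases, the read length, of a member's GENCODE transcript occurred exactly in a transcript of another gene. With 2 mismatches allowed, 3.34% of the windows of Mrgpra3 matched other family transcripts, those of Mrgpra4 and Mrgpra14, against 1 window of Mrgprx1. The other members had no such window. In contrast, 73.4% of the windows of Mrgpra2a and 71.8% of those of Mrgpra2b occurred exactly in the other one.

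The libraries held an estimated 13900000 to 20000000 fragments each, and Mrgprd rested on 2065 to 6138 of them, Mrgpra3 on 170 to 928, Mrgprx1 on 186 to 618, Mrgprb4 on 134 to 320 and Mrgprb5 on 54 to 258. Some libraries stood apart from their group. By a chi-square per gene that is 1 for counting error alone, intact replicate 1 differed from the other intact samples by 47.0 to 53.8, and the others from each other by 4.32 to 5.70. MACS-sorted replicate 4 differed from the rest of its group by 30.3 to 38.2. Unsorted replicates 1 and 2 differed by 1.60 only, less than any other pair but more than counting error, and were counted as 2 samples. The paper describes the samples of each condition as biological replicates. The labels do not say whether replicates 1 and 2 came from 1 pool of cells. If they did, the unsorted group holds 3 independent samples, and with both averaged into 1 the same 6 members were called after sorting, at log2-fold changes of 0.49 for Mrgpre to 2.14 for Mrgpra3. Mrgprb4 was again the member called between unsorted and intact samples, at -0.66 (limma adjusted p = 0.014).

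Mrgprd was the most highly expressed member in every group, and its transcript rose after sorting. It was 41.7, 53.7, 55.6 and 48.2 FPKM in intact samples 1 to 4, 49.2, 51.7, 59.8 and 56.1 FPKM in unsorted samples and 119, 124, 118 and 59.9 FPKM in MACS-sorted samples. FPKM scale fragments by transcript length and library size, so that levels can be compared between genes. The MACS-sorted mean of 105 ± 30.3 FPKM (SD, n = 4) was 1.94-fold the unsorted mean of 54.2 ± 4.72 FPKM (SD, n = 4). MACS-sorted replicate 4 lay far below the other 3 and just above the highest unsorted sample, so that the groups touched without overlapping. Between sorted and unsorted samples the log2-fold change was 0.90 (SE, the standard error, 0.21, limma p adjusted by Benjamini-Hochberg = 0.0064). Without MACS-sorted replicate 4 it was 1.15 (limma adjusted p = 4.8e-06). Unsorted and intact samples overlapped and differed by 0.13 on the log2 scale (SE 0.11, limma adjusted p = 0.41).

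**Figure D1:**
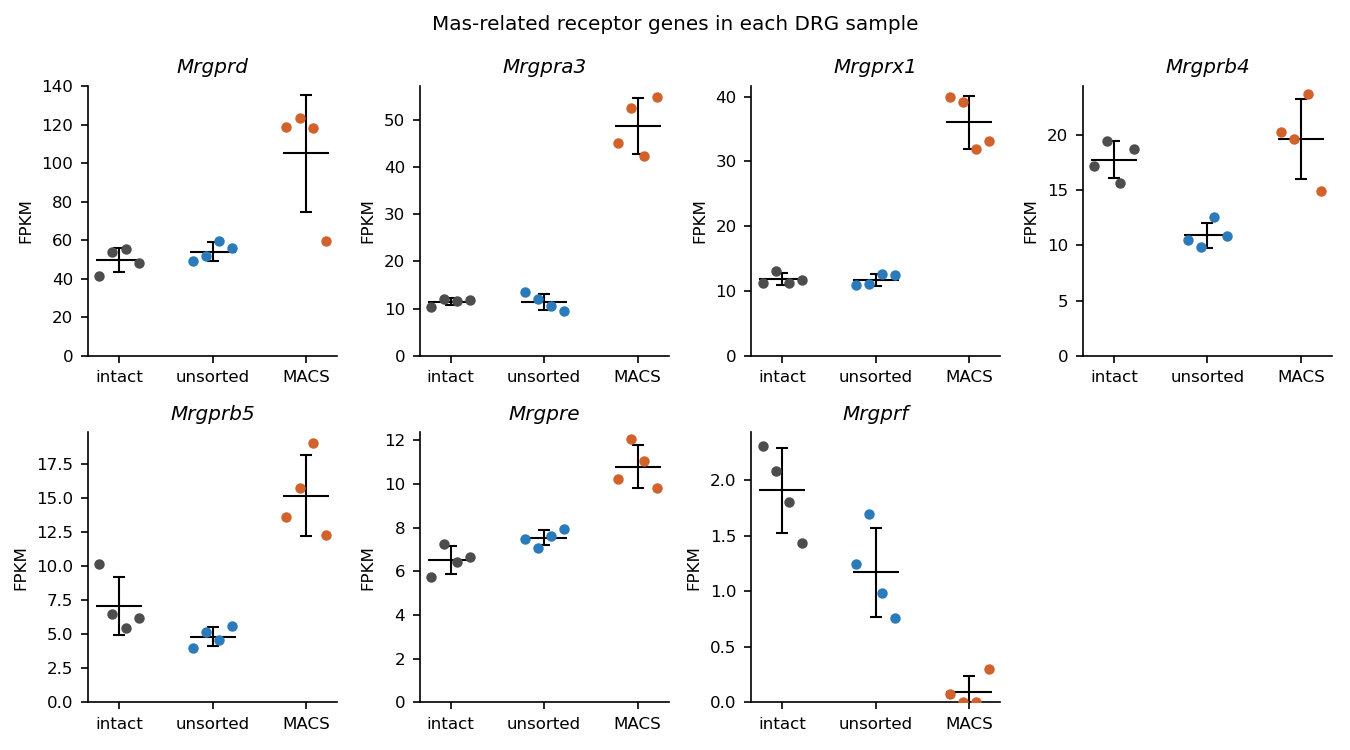
FPKM (vertical axes, linear, from 0) of the 7 members in intact, unsorted and MACS-sorted DRG samples. Each point is 1 sample, from replicate 1 on the left to replicate 4, and the bars give the mean and the SD of 4 samples. For 6 members every sorted value lay above every unsorted one, for Mrgprf below, and MACS-sorted replicate 4 stood apart for Mrgprd at 59.9 FPKM.

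The receptors of itch neurons rose further than Mrgprd, as did Mrgprb5, described below. Mrgpra3 was 10.3, 12.02, 11.7 and 11.9 FPKM in intact samples, 13.6, 12.02, 10.6 and 9.61 FPKM in unsorted samples and 45.0, 52.6, 42.2 and 54.9 FPKM in MACS-sorted samples. All MACS-sorted samples were at least 3.12-fold above every unsorted sample, and intact and unsorted samples overlapped. The log2-fold change after sorting was 2.08 (SE 0.12, limma adjusted p = 1.83e-06), the largest among the members.

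Mrgprx1 had nearly the same level as Mrgpra3 before sorting. It was 11.3, 13.2, 11.2 and 11.7 FPKM in intact, 10.9, 11.01, 12.6 and 12.4 FPKM in unsorted and 40.0, 39.2, 31.9 and 33.2 FPKM in MACS-sorted samples. Sorted samples again lay apart from all others, while intact and unsorted samples overlapped. The log2-fold change after sorting was 1.61 (SE 0.095, limma adjusted p = 1.85e-06), and between unsorted and intact samples it was -0.01 (SE 0.083, limma adjusted p = 0.92).

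Mrgprb4, the marker of stroking-sensitive C-fibres, was the only member called between unsorted and intact samples, where it fell. It was 17.2, 19.4, 15.7 and 18.8 FPKM in intact samples, 10.5, 9.89, 12.5 and 10.9 FPKM in unsorted samples and 20.3, 19.6, 23.7 and 14.9 FPKM in MACS-sorted samples. The unsorted samples lay below all samples of both other groups, and intact and MACS-sorted samples overlapped. Its log2-fold change was -0.69 from intact to unsorted samples (SE 0.098, limma adjusted p = 0.0033). From unsorted to MACS-sorted samples it was 0.82 (SE 0.14, adjusted p = 8.6e-04), and from intact to MACS-sorted samples it was 0.13 (SE 0.14, adjusted p = 0.52), both by limma.

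Mrgprb5 was 10.2, 6.46, 5.42 and 6.21 FPKM in intact samples, 3.97, 5.17, 4.54 and 5.61 FPKM in unsorted samples and 13.6, 15.7, 19.0 and 12.25 FPKM in MACS-sorted samples. MACS-sorted samples were above all others, and the intact and unsorted ranges overlapped, with intact replicate 1 far above the other 3 intact samples. The log2-fold change after sorting was 1.62 (SE 0.15, limma adjusted p = 2.7e-05). From intact to unsorted samples it was -0.51 (SE 0.19, limma adjusted p = 0.085), and -0.32 without intact replicate 1 (limma adjusted p = 0.063).

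The orphan receptor genes Mrgpre and Mrgprf moved in opposite directions. Mrgpre was 5.74, 7.26, 6.44 and 6.67 FPKM in intact, 7.49, 7.09, 7.63 and 7.91 FPKM in unsorted and 10.2, 12.03, 11.04 and 9.80 FPKM in MACS-sorted samples. All sorted samples were higher than all unsorted ones, but the change was the smallest among the members that rose. Its log2-fold change of 0.51 (SE 0.086, limma adjusted p = 9.6e-04) lies near the fold limit, and without MACS-sorted replicate 2 or unsorted replicate 2 it was 0.45 or 0.48 and was not called.

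Mrgprf was 2.31, 2.08, 1.80 and 1.43 FPKM in intact samples, 1.25, 1.69, 0.982 and 0.755 FPKM in unsorted samples and 0.0797, 0, 0 and 0.297 FPKM in MACS-sorted samples. All MACS-sorted samples were below all unsorted samples. At the depth of these libraries the values rest on 51 to 74 fragments per intact sample, 23 to 60 per unsorted sample and between 0 and 8 per MACS-sorted sample. In the 2 libraries listed at 0, 3 fragments would have given 0.0987 and 0.0903 FPKM. A listed 0 can also be a failed estimate, as described below for other genes. The mean fell by 2.90 on the log2(FPKM + 0.1) scale after sorting, in a fit with no filter on low values (limma adjusted p = 0.0010). With the filter its mean over sorted and unsorted samples was too low for a test, while it was tested in both comparisons with intact samples. Between unsorted and intact samples its log2-fold change was -0.69, as large as that of Mrgprb4 but with a wider spread (SE 0.24, limma adjusted p = 0.072). From intact to MACS-sorted samples it fell by 3.598 on the same scale (SE 0.52, limma adjusted p = 5.8e-04). With a level below 5 FPKM in every group, it could not be called in any comparison.

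In MACS-sorted against unsorted samples, 6 of the 6 members that could be tested were called higher, and 8.15% of the 12038 genes tested were called higher and 12.5% lower. For all 6 the groups did not overlap, as was the case for 18.4% of genes in the higher direction, and Mrgprf was lower in all sorted samples, as were 27.8% of genes. Calls needed 3 things, which were an adjusted p-value below 0.05, group means that differed by more than 0.5 as a log2 ratio, and more than 5 FPKM on average in the group with the higher level. The median log2-fold change of the tested members was 1.26, against -0.04 for all genes tested. The paper lists these 6 members among its genes enriched after sorting, from the same samples. The members were chosen with earlier results of these data known, so the count and the median describe a chosen set and are not an independent test. In unsorted against intact samples, 1 of 7 members was called, Mrgprb4, which was lower, as were 2.76% of 12392 genes, while 4.29% were higher. In MACS-sorted against intact samples, 5 of 7 members were called higher, against 7.54% of 12234 genes. The log2-fold changes were 2.07 for Mrgpra3, 1.60 for Mrgprx1, 1.11 for Mrgprb5, 1.03 for Mrgprd and 0.72 for Mrgpre. The 3 comparisons share samples and are not independent of each other. In a bulk sample, fewer cells of a type and less RNA in each of these cells cannot be told apart.

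**Figure D2:**
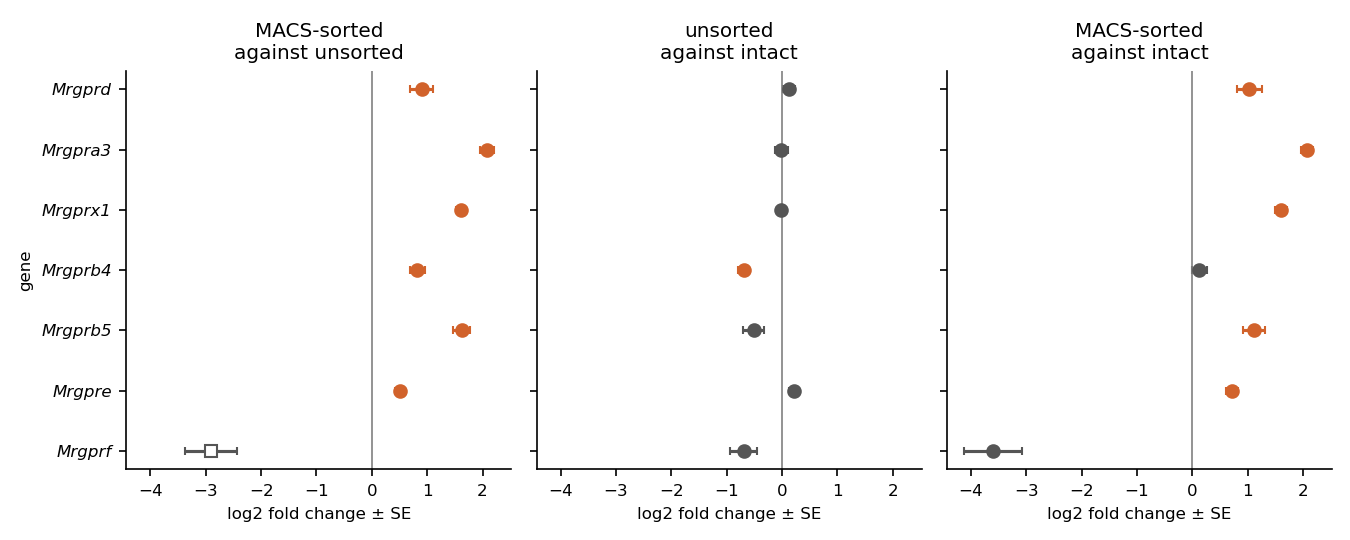
Log2-fold change (horizontal axes) with its SE for each member in the 3 comparisons. Orange points were called, grey points were not, and the open square is from the fit with no filter on low values. Mrgpra3 had the largest rise after sorting at 2.08 and Mrgprb4 was the only call between unsorted and intact samples at -0.69.

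The order of the levels changed with the preparation. In intact samples the order of the means was Mrgprd, Mrgprb4, Mrgprx1, Mrgpra3, Mrgprb5, Mrgpre and Mrgprf, from 49.8 ± 6.23 to 1.91 ± 0.38 FPKM (SD, n = 4). There the ranges of Mrgprx1 and Mrgpra3 overlapped, and so did those of Mrgprb5 and Mrgpre. In unsorted samples Mrgprx1, Mrgpra3 and Mrgprb4 overlapped each other at means of 11.7, 11.4 and 10.9 FPKM. Mrgpre, at 7.09 to 7.91 FPKM, stood above Mrgprb5, at 3.97 to 5.61 FPKM, the reverse of their means in the other groups. In MACS-sorted samples the order was Mrgprd, Mrgpra3, Mrgprx1, Mrgprb4, Mrgprb5, Mrgpre and Mrgprf, and only the neighbours Mrgprb4 and Mrgprb5 overlapped. The sum over the 7 members was 98.7 to 114 FPKM in intact, 96.8 to 109 FPKM in unsorted and 185 to 263 FPKM in MACS-sorted samples.

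The members did not rise by the same factor. For each of the 21 pairs the log2 ratio of both genes was compared between MACS-sorted and unsorted samples. By an exact two-sided permutation test, 15 pairs differed at an adjusted p of 0.040. Each of the 15 had an unadjusted p of 0.0286, the smallest that 4 samples against 4 allow. The share among pairs of other genes was not computed. Of the 15 pairs that do not include Mrgprf, 9 differed. The ratio of Mrgpra3 to Mrgprd was 0.275, 0.233, 0.177 and 0.171 in unsorted samples and 0.379, 0.425, 0.357 and 0.916 in MACS-sorted samples. All sorted samples were higher, and replicate 4, with its low Mrgprd level, stood apart. The ratio of Mrgprb4 to Mrgprb5 was 2.64, 1.91, 2.76 and 1.94 in unsorted samples and 1.495, 1.25, 1.25 and 1.22 in MACS-sorted samples. This pair, the closest in sequence, therefore changed by different factors, with a difference in log2 ratio of -0.80 (adjusted p = 0.040, exact permutation test, n = 4). The pair Mrgprb5 and Mrgprx1 had a difference of 0.01 (adjusted p = 0.91, exact permutation test), with -0.16 to 0.11 when single samples were left out. The itch receptors Mrgpra3 and Mrgprx1 differed by 0.47 (adjusted p = 0.075, exact permutation test).

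**Figure D3:**
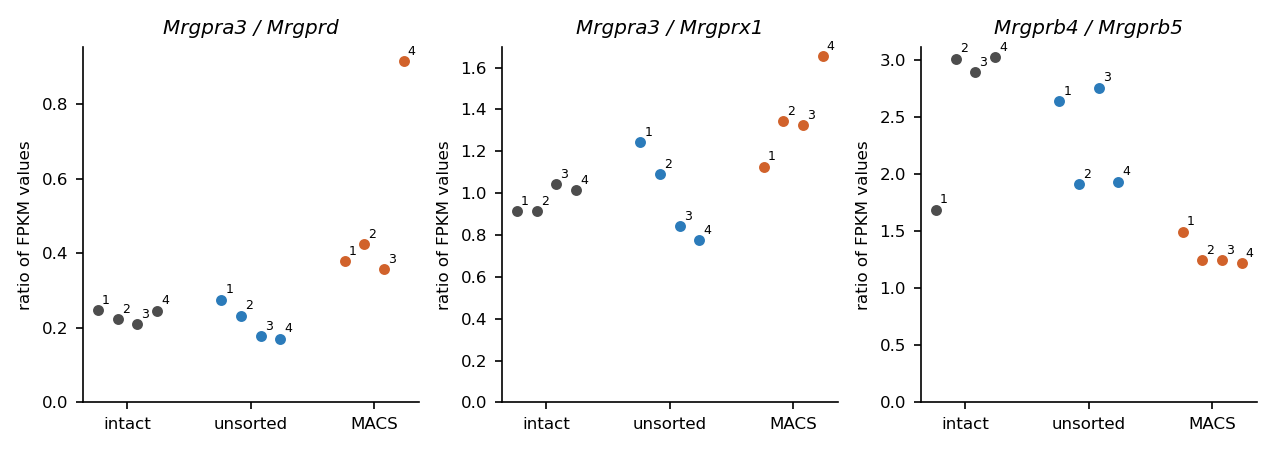
Ratios of FPKM values (vertical axes, from 0) of 3 pairs of members in each sample, with the replicate number beside each point. Mrgpra3 relative to Mrgprd was higher in all MACS-sorted samples and reached 0.916 in replicate 4, and Mrgprb4 relative to Mrgprb5 was lower in all MACS-sorted samples than in all unsorted ones.

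Each member was also set against 8 genes expressed by neurons in general, by subtracting their mean log2 level within each sample. After sorting, all 7 members moved relative to these genes at an adjusted p of 0.043 over 21 exact permutation tests. The share of all genes that would pass was not computed. On their own scale, 18.4% of 12038 genes were higher and 27.8% lower in all sorted than in all unsorted samples. The differences of the 6 that were higher ran from 0.38 for Mrgpre to 1.96 for Mrgpra3, and Mrgprf was lower by -3.03. From intact to unsorted samples Mrgprb4 was lower by -0.97, Mrgprb5 by -0.78 and Mrgprx1 by -0.29 at the same adjusted p of 0.043 by the exact permutation test. The neuronal genes themselves had a median log2-fold change of 0.31 in this comparison, with 6 of 8 higher in all unsorted samples, and Mrgprx1 on its own scale had one of -0.01. After sorting the neuronal genes did not move together. Snap25, a vesicle fusion protein, was 605 ± 26.7 FPKM in unsorted and 314 ± 14.4 FPKM in MACS-sorted samples (SD, n = 4), while Syt1, a calcium sensor of vesicles, had a log2-fold change of 0.75 (limma adjusted p = 1.6e-04). With Snap25 left out of the list, none of the 21 tests reached the threshold, because the number of tests at the smallest possible p fell and the lowest adjusted p became 0.055. Mrgprd was also past the threshold no longer without Tubb3, at a difference of 0.70 (adjusted p = 0.071, exact permutation test).

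Genes that mark the neurons in which these receptors are found were read from lists chosen with earlier results of these data known. Of 10 genes of non-peptidergic neurons, 9 were called higher after sorting, with a median log2-fold change of 0.94. They included Acpp, an ectonucleotidase known as prostatic acid phosphatase (1.30, SE 0.086), Gfra2, the neurturin receptor (1.31, SE 0.12), and Scn11a, which encodes the sodium channel Nav1.9 (1.03, SE 0.11). Of 8 itch neuron genes, 6 were called higher, among them Nppb, a natriuretic peptide that transmits itch (1.42, SE 0.31), and Il31ra, a subunit of the interleukin-31 receptor (1.42, SE 0.325). The summed level of the itch neuron list ran from 39.4 to 50.6 FPKM in unsorted samples. After sorting, replicate 1 reached 231 FPKM while replicates 2 to 4 lay between 81.2 and 104 FPKM. Against intact samples, 1 of the 8, the oncostatin M receptor gene Osmr, was called higher after sorting, and Nppb had means of 27.4 FPKM in sorted and 26.0 FPKM in intact samples. All 3 measured genes of C-fibre low-threshold mechanoreceptors were called higher, with Th, tyrosine hydroxylase, at 89.7 to 238 FPKM in MACS-sorted and 26.1 to 42.6 FPKM in unsorted samples.

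From intact to unsorted samples, 3 of 7 itch neuron genes were called lower, as was Mrgprb4, against 2.76% of 12392 genes tested. Nppb was 26.0 ± 13.4 FPKM in intact and 9.37 ± 1.84 FPKM in unsorted samples (SD, n = 4), a log2-fold change of -1.36 (SE 0.29, limma adjusted p = 0.013). Il31ra had a log2-fold change of -1.003 (SE 0.11, adjusted p = 0.0016) and Cysltr2, a leukotriene receptor, of -0.87 (SE 0.10, adjusted p = 0.0019), both by limma. These 3 genes were also the ones called without intact replicate 1, the sample with the highest Nppb level of its group at 45.9 FPKM. The itch receptors Mrgpra3 and Mrgprx1 were not called in this comparison, with log2-fold changes of -0.01 each. Of the 3 measured genes of C-fibre low-threshold mechanoreceptors, 0 were called, but 2 were lower at a limma adjusted p below 0.05. Their list had a median log2-fold change of -0.50. Of the 10 genes of non-peptidergic neurons 0 were called, with a median of 0.02.

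**Figure D4:**
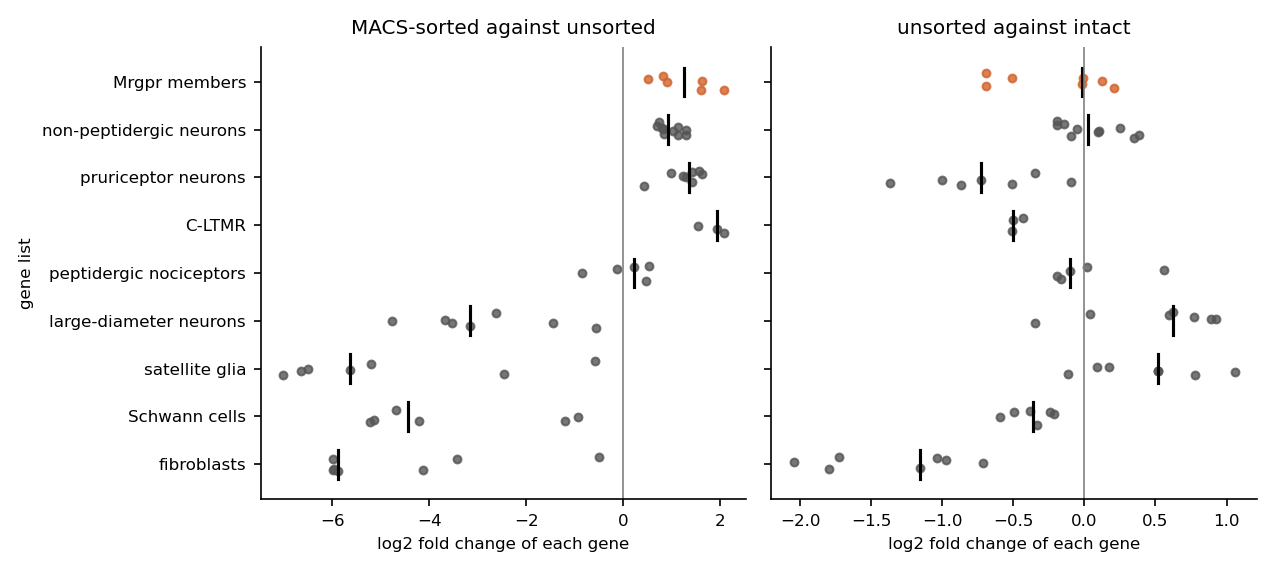
Log2-fold change (horizontal axes, of different range) of each tested gene of 9 lists, for MACS-sorted against unsorted and for unsorted against intact samples. Each point is 1 gene, the members are in orange and the vertical bars are list medians. Members and genes of small neurons were mostly above 0 after sorting, and genes of large neurons, glia and fibroblasts were below 0.

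Genes that act with these receptors moved in both directions. Of 8 factors of the sensory neuron lineage, 5 were called higher after sorting and 1 lower. Runx1 was 15.7 ± 0.668 FPKM in unsorted and 37.1 ± 3.78 FPKM in MACS-sorted samples (SD, n = 4), a log2-fold change of 1.23 (SE 0.082, limma adjusted p = 3.5e-06). Cbfb, whose product binds Runx proteins and strengthens their hold on DNA, had a log2-fold change of -0.77 (SE 0.087, limma adjusted p = 7.9e-05). Of 19 tested genes of G protein coupling and its effectors, 8 were called higher and 4 lower. Among those that rose were Gnaq (0.75, SE 0.13) and Gna14 (1.12, SE 0.13), alpha subunits of the Gq class, and Plcb3, a phospholipase C (0.99, SE 0.135). Plcb1 and Plcb4, other phospholipases C, fell, with log2-fold changes of -1.27 and -1.15, and so did the inhibitory subunit gene Gnai1 with -1.31. Trpa1, a channel opened downstream of Mrgpra3, rose by 0.80 (SE 0.14). Of 6 precursor genes of peptide ligands, Penk, the source of BAM8-22, was the only one with a level high enough for a test, at a mean of 2.89 FPKM in unsorted and 2.08 FPKM in MACS-sorted samples (limma adjusted p = 0.38).

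The bases before the start of Mrgprd are shown because they lie between it and Mrgprf, its neighbour on the same strand, which was lower in all MACS-sorted samples. They are the 250 bases upstream of the RefSeq start of Mrgprd on the plus strand of GRCm38.p6 (chr7:145314585-145314834).
Mrgprd upstream: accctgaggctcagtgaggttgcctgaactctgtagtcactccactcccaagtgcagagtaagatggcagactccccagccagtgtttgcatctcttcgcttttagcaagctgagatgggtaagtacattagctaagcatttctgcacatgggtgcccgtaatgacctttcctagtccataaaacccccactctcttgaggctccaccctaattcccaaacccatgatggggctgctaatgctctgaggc
The Runx core TGTGGT was searched on both strands in windows from 250 bases before to 50 bases after each RefSeq start. It was in none of the windows of the 5 members with an entry, Mrgprd, Mrgprx1, Mrgprb4, Mrgprb5 and Mrgpre, and in 16.8% of 32851 windows of the same length. These are descriptions of letters in a short window and say nothing about binding.

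Markers of many other cell types moved with the preparation, but not all did. Of 6 endothelial genes none was called after sorting, with sums of 38.2 to 50.5 FPKM in unsorted and 11.4 to 68.1 FPKM in MACS-sorted samples. The summed level of 7 fibroblast genes was 810 to 1592 FPKM in intact, 223 to 461 FPKM in unsorted and 10.9 to 46.1 FPKM in MACS-sorted samples. This order was also that of Mrgprf. Mean sums of Schwann cell genes (3277, 2608 and 716 FPKM) and macrophage genes (17.3, 7.92 and 1.08 FPKM) had the same order. Those of satellite glia, mast cell, endothelial, and smooth muscle and pericyte genes did not. Single genes of these lists differed from their sums. Kit, at means of 15.0, 19.4 and 9.49 FPKM, made up most of the mast cell sum. Cpa3, Cma1, Mcpt4, Tpsb2 and Fcer1a did have the order of Mrgprf, while Kit, Hdc and Tpsab1 did not. Tagln, Cnn1, Des and Pdgfrb had it too, while Acta2, Myh11, Rgs5 and Notch3 did not. MACS-sorted replicate 4 had the highest Mrgprf value of its group. It also had the highest sums of fibroblast (46.1 FPKM), satellite glia (195 FPKM), Schwann cell (1192 FPKM) and macrophage genes (2.34 FPKM). Of the 8 smooth muscle and pericyte genes, Tagln was listed at 0 in all MACS-sorted samples and Acta2 had a mean of 0.254 FPKM, but Rgs5 rose to a mean of 83.4 FPKM. The part of any of these cell types in the change of Mrgprf was not tested. The summed level of 7 satellite glia genes was 2117 to 2671 FPKM in unsorted and 89.8 to 195 FPKM in MACS-sorted samples. That of 7 genes of large-diameter neurons was 832 to 1024 FPKM in unsorted and 81.2 to 154 FPKM in MACS-sorted samples. Red blood cell genes summed to 88.1 to 325 FPKM in unsorted and 1476 to 12693 FPKM in MACS-sorted samples, and removing them left the same 6 members called after sorting.

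Most other family members were listed at or near 0. A listed 0 can also be a failed estimate in this table, which gives 0 for Hba-a1, a haemoglobin gene, in all samples and for the widely used Trmt112 in all intact and unsorted samples, so these values do not show absence. Mrgprb3, Mrgpra6 and Mrgprg were listed at 0 in all 12 samples. Mrgprb1, Mrgprb2, Mrgprx2 and Mrgprh were listed at 0 in all 4 MACS-sorted samples, and their means elsewhere were at most 0.189 FPKM. Mrgprb2 is known as a receptor of mast cells. Of 8 mast cell genes, Tpsb2, Tpsab1 and Fcer1a were also listed at 0 in every MACS-sorted sample. Tpsab1 and Fcer1a had means of only 0.0464 and 0.0342 FPKM in unsorted samples. The other mast cell genes had MACS-sorted means from 0.0211 FPKM for Mcpt4 to 9.49 FPKM for Kit, and Hdc was not lower than in unsorted samples (0.447 and 0.426 FPKM). Mrgpra2b rose from 4.60 ± 0.39 FPKM in unsorted to 8.26 ± 1.12 FPKM in MACS-sorted samples (SD, n = 4), with a log2-fold change of 0.83 (SE 0.12, limma adjusted p = 3.1e-04). Its near-identical copy Mrgpra2a was 1.75 ± 0.30 FPKM in unsorted and 1.64 ± 0.72 FPKM in MACS-sorted samples (SD, n = 4), and because both share most read-length windows the split between them is uncertain. Mas1 and Mrgprb8 had means of at most 0.0995 FPKM. Mrgpra1, Mrgpra4 and Mrgpra9, relatives of Mrgpra3 in its cluster, had MACS-sorted means of 0.958, 0.357 and 1.03 FPKM.

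**Figure D5:**
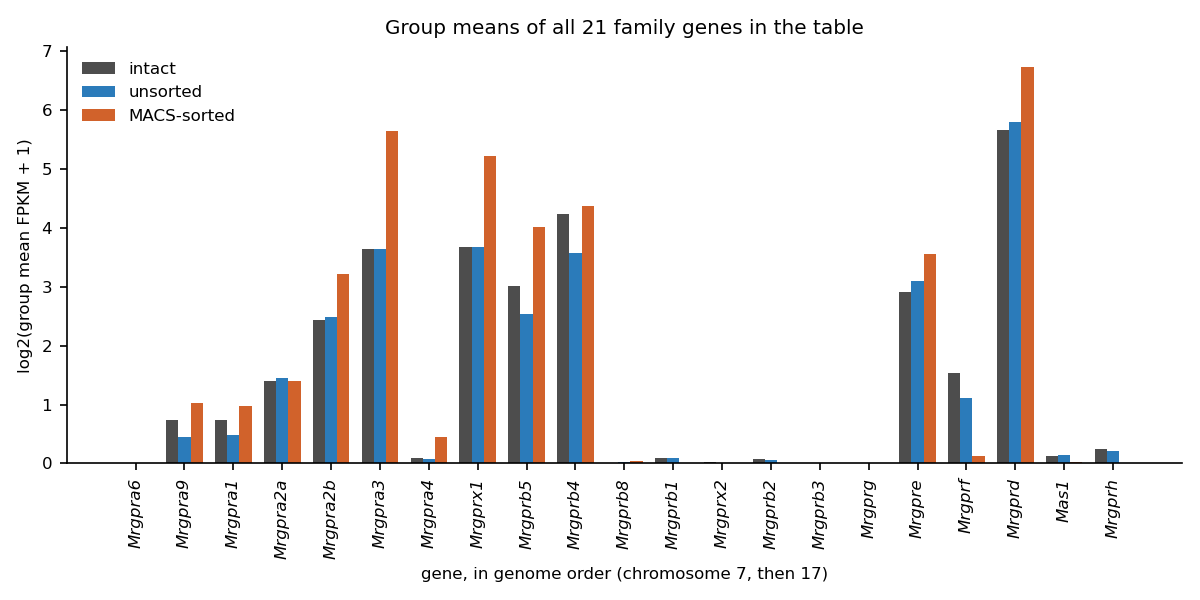
Group means of the 21 family genes, as log2(mean FPKM + 1) on the vertical axis, in the order of their position on chromosome 7 and then 17. From Mrgpra3 to Mrgprb4 the sorted means are above the unsorted ones, and Mrgprf stands beside Mrgprd with the opposite order of groups.

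The genes most alike each member over the 12 samples were found by the correlation of log2 levels, which is a description over 3 groups and not a test. For Mrgpre the closest gene was Ret, the receptor tyrosine kinase of non-peptidergic neurons (r = 0.99, n = 12), with means of 104, 132 and 221 FPKM in intact, unsorted and MACS-sorted samples. For Mrgprd it was Man1c1, a Golgi mannosidase (r = 0.98), and for Mrgprx1 Dnase1l3, a secreted DNase (r = 0.99). For Mrgpra3 it was Trmt112, a methyltransferase subunit that was listed at 0 in all intact and unsorted samples and had a MACS-sorted mean of 7.28 FPKM, and after it Cyp4f39 and Prrxl1, a homeobox factor of DRG neurons. For Mrgprb4 it was Prkar2a, a regulatory subunit of protein kinase A, at a lower r of 0.90, and for Mrgprb5 Gm16702 (r = 0.98). For Mrgprf the closest were Anpep, an aminopeptidase (r = 0.99), Athl1 and Scara3, whose means also fell in the order intact, unsorted and MACS-sorted, for Anpep from 2.26 to 1.56 and 0.185 FPKM.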

How the data were processed

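RNA was sequenced from 12 samples, 4 each of intact, unsorted and MACS-sorted DRG, and all were used. Alignment to mm10 was done by the authors with TopHat2, who then estimated FPKM per gene with Cufflinks 2.1.1, per the labels and the study's methods. The deposited values are FPKM and were analysed as such, without read counts. Groups came from the sample labels.

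For each pair of groups, log2(FPKM + 0.1) of all genes was fitted in limma 3.58.1 (R 4.3.3) with its trend option. Genes with a mean under 1 FPKM over the 8 samples were not tested, p-values were two-sided and Benjamini-Hochberg adjusted, and limma replaced CuffDiff, which needs aligned reads. Single measures were compared with exact two-sided permutation tests, for which 4 samples against 4 allow no p below 0.0286. Errors are SDs over samples. The paper describes the samples of each condition as biological replicates, but the labels do not say whether they came from separate preparations. The p-values therefore measure the spread between these samples.

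The low FPKM values of genes with 1 transcript were whole multiples of 1 fragment, within 0.1, for 98.5% to 100.0% of values when a fragment length of 200 bases was assumed. This gave 13900000 to 20000000 fragments per sample. Over such genes, unsorted replicates 1 and 2 differed by a chi-square of 1.60 per gene and the other unsorted pairs by 7.28 to 15.7, so both were kept and their average was tried as 1 sample. Coding sequences and transcripts were from GENCODE M21 and upstream sequences from RefSeq GRCm38.p6, and a promoter window was at hand for 5 of the 7 members. Proteins were not used here. The members, the gene lists and the rule for named genes were chosen with earlier results of these data known. The rule named the members, the rest of the family, the 3 genes most alike each member and list genes that passed the test or stood at the ends of their list. The procedure was tested on simulated data. The alternatives changed the pseudocount, the filter, the samples fitted, the block, the variance prior, the scaling and single samples.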

Additional observations from a re-analysis of the deposited data

Results flagged for a closer look

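Mrgprd at 59.9 FPKM in MACS-sorted replicate 4 lay so far below the other 3 samples of its group, at 118 to 124 FPKM, that the gap took up most of the range of the group. The same sample stood apart when Mrgprd was set against the neuronal genes, at -2.22 on the log2 scale. Of 42 groups of 4 samples examined in this way, 2 were marked, and chance marks about 1 in 20. In that sample the other 5 members that rose were between 9.80 and 54.9 FPKM, with Mrgpra3 at the highest value of its group and Mrgprb4, Mrgprb5 and Mrgpre at the lowest. The 10 genes of non-peptidergic neurons, the neurons that Mrgprd marks, had their lowest sum in it, at 1040 FPKM against 1382 to 1460 FPKM in the other 3. So did genes of peptidergic nociceptors (968 against 1307 to 1645 FPKM), of neurons in general (3815 against 4041 to 4902 FPKM) and the lineage factors. Sums of itch neurons, C-fibre low-threshold mechanoreceptors and large-diameter neurons were not lowest in it. Red blood cell genes had their highest sum in it, at 12693 FPKM. Schwann cell genes summed to 1192 FPKM in it, against 517 to 588 FPKM in the other 3. What part any of these has in the Mrgprd level of this sample was not tested.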

How the results depend on the processing

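No called value changed direction under the alternatives, while the log2-fold changes of Mrgpra3 and Mrgprx1 between unsorted and intact samples, near 0, took either sign when single samples were left out. Mrgpre after sorting ran from 0.4539 to 0.5517 when single samples were left out, and 5 to 6 members were called. Of the differences of single members from the neuronal genes, 17 missed the threshold and 8 newly passed it. These were settings with another pseudocount or with single neuronal genes left out. Without single samples these differences were not tested again. Removing the red blood cell list raised the calls between unsorted and intact samples to 2, adding Mrgprb5 at -0.5312 (adjusted p = 0.049 from limma). With a limit of 1 FPKM, Mrgprf was called from intact to MACS-sorted samples at -3.5979. The count of members that differed from the neuronal genes between unsorted and intact samples rose from 3 to 5 with a pseudocount of 1, without Syt1 or without Stmn2, and fell to 0 in all 3 comparisons without Snap25. Quantile normalization moved the median of all genes after sorting from -0.04 to 0.11. A block for the replicate number kept the call of Mrgprb4 between unsorted and intact samples (adjusted p = 0.018 from limma) and changed no call of a member. Samples of the same number did not deviate together, with correlations of -0.143 to 0.067, so the numbers do not pair them. In the exact tests with the block, 4 pairs allow no p below 0.125. In lists, 8 to 10 of 10 genes of non-peptidergic neurons were called higher after sorting under the alternatives added after seeing the data. Fragment numbers limit Mrgprf most, at an estimated 0 to 8 per sorted sample.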
